A study of Rattus norvegicus with 6 samples.

Results

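The mRNAs of voltage-gated sodium and calcium channels were profiled in the hippocampus of 3 AD and 3 Sham tissue samples, with 1 single-colour Agilent array per sample. A gene belonged to the set if its RefSeq rat symbol began with Cacna, Cacnb or Cacng, or was Scn followed by a number and a or b, which leaves out the epithelial sodium channels. By this rule RefSeq holds 40 genes, and 38 of them had a probe whose accession matched, out of 15168 named genes on the array. Scn7a and Cacna1d had no matched probe and were not analysed here. The 38 genes had 48 probes, and where a gene had more than 1 (10 genes) the brightest was used. All rats were adult male Sprague Dawley animals. AD rats were given Aβ oligomers by intracerebroventricular injection, and Sham rats were given only the vehicle, on both sides. AD is here a model by injection, without a transgene, and was measured in hippocampal tissue. The labels do not tie each sample to an animal, and the spread behind each p-value is that between these samples, which may be technical.

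Voltage-gated sodium channels open when the membrane depolarises and carry the rising phase of the action potential. Each consists of a pore-forming alpha subunit (Scn genes ending in a) and smaller beta subunits (ending in b) that modify gating and attach the channel to adhesion proteins. Voltage-gated calcium channels turn depolarisation into calcium entry, which triggers transmitter release at terminals and gene expression in the soma. Their pore is the alpha1 subunit (Cacna1 genes), while alpha2delta (Cacna2d) and beta (Cacnb) subunits bring it to the membrane. Of the gamma family (Cacng), several members, called TARPs, mainly accompany AMPA-type glutamate receptors.

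Levels are log2 signals relative to the 75th percentile of each array, so a level of 0 is that percentile, and levels of different probes are not compared. Pairs of AD arrays correlated at 0.988 to 0.994 (Pearson's r over probes), pairs of Sham arrays at 0.979 to 0.993 and mixed pairs at 0.976 to 0.987. The 3 AD arrays were read in 1 scan, Sham replicates 1 and 2 in another on the same day and Sham replicate 3 in a scan on another day, so that scan and group cannot be told apart. With scan as a random block limma called 0 of 22818 probes (3671 at an unadjusted p under 0.05) and 0 channel genes (6 at an unadjusted p under 0.05). Of the pyramidal and granule cell markers 8 had a probe, among them Prox1 and Neurod6. All 8 were tested (above background on at least 3 arrays), with 0 called by limma and 1 at an unadjusted p under 0.05. Detection alone does not establish hippocampal identity, since all 6 striatum and thalamus genes with a probe were tested as well. Markers of neighbouring tissue and blood also differed between arrays. Choroid plexus markers summed to 80.9 to 135 over 8 genes in AD, against 27.2 to 102 in Sham, with 7 of 7 tested genes above 0, a median log2 difference of 2.03 and 0 called by limma (4 at an unadjusted p under 0.05). Striatum and thalamus markers summed to 2.58 to 3.47 over 6 genes in AD, against 2.11 to 2.501 in Sham, with 1 of 6 called higher (Ppp1r1b, 0.80 ± 0.15 SE, limma adjusted p = 0.0285). Their median log2 difference was 0.38, but they did not all rise. Drd2 was lower (-0.65, groups not overlapping, not called) and Lhx9 differed by 0.02. Erythrocyte markers summed to 6.42 to 13.0 over 3 genes in AD, against 11.4 to 67.7 in Sham, with 0 called (1 at an unadjusted p under 0.05). No gene on these 3 lists was below background on all 6 arrays, and their part in the channel values was not tested.

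Of the 38 channel genes, 32 had a signal well above background on 3 or more arrays and were tested, 30 of them above background on all 6 arrays. Limma called 3 of the 32 at an adjusted p under 0.05, and all 3 were lower in AD. These were Scn1a, Scn9a and Cacna1b. Over all tested probes 12.5% were called, 8.39% lower and 4.15% higher, so the share of channel genes (9.38%) was close to the background and is no property of the set. With 1 probe per named gene the background was 10.8% lower and 4.08% higher. No channel gene was called higher (0 of 32), and 9 of 32 had an unadjusted p under 0.05 in either direction, beside 31.3% of all tested probes. The methods' t-test with Benjamini-Hochberg adjustment called 2 of the 3, Scn9a and Cacna1b. The median log2 difference (AD minus Sham) of the 32 genes was -0.04, beside -0.01 over all tested probes, with 17 genes below 0 and 15 above. The direction of that median depended on scaling, since it was 0.05 when only detected probes set the 75th percentile. Most differences were small. The median size was 0.17 and 22 of 32 genes differed by under 0.25 on the log2 scale.

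**Figure D1:**
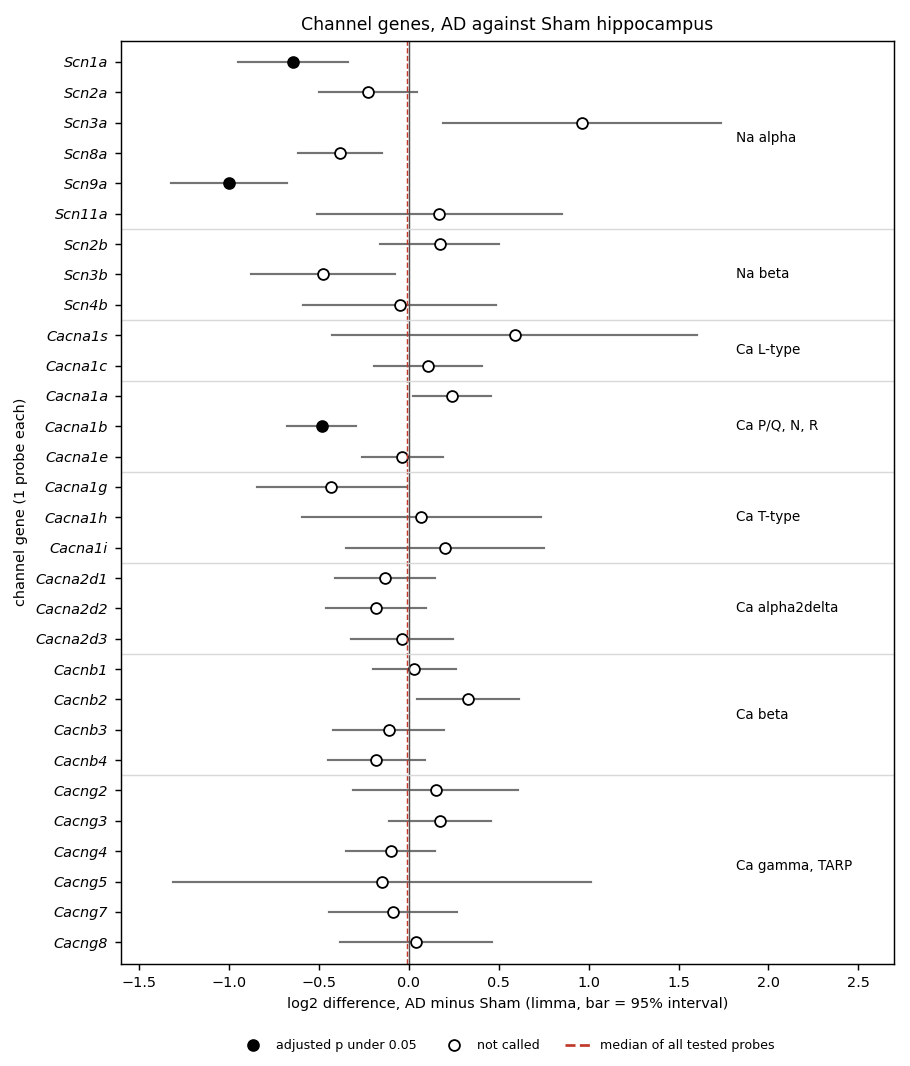
The horizontal axis gives the log2 difference (AD minus Sham) of 30 of the 32 tested channel genes (vertical axis, by subunit family), with 95% intervals from limma, filled points for an adjusted p under 0.05 and a dashed line at the median of all tested probes (-0.01). The 3 filled points, Scn1a, Scn9a and Cacna1b, all lie left of 0, and Scn3a lies farthest right at 0.96.

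Among the sodium channel alpha subunits, 2 of 7 tested genes fell, Scn9a and Scn1a, and 4 of 7 had an unadjusted p under 0.05. Scn9a encodes a channel best known from pain-sensing neurons. It was measured at -3.56, -3.52 and -3.64 on AD arrays 1, 2 and 3, against -2.58, -2.34 and -2.80 on the Sham arrays. The AD values lay close together and all Sham values were higher. The mean was -3.57 ± 0.06 in AD and -2.58 ± 0.23 in Sham (SD, n = 3 each). The log2 difference was -0.998 ± 0.13 (SE), a 2.0-fold fall, with a limma adjusted p of 0.0194. The fall was 0.77 under normexp background correction and 1.11 within scan day 1, both called. Leaving out any of the AD replicates or Sham replicate 1 or 2 ended the call, with log2 differences of -0.88 to -1.02 and limma adjusted p-values of 0.0524 to 0.118. Each of those runs called only 0 to 2 of all 22818 tested probes, so the loss is not particular to Scn9a. Over its 21 alternatives the adjusted p ran between 0.00202 and 0.173. Scn9a was below 0 in all 21. Sensory ganglion markers, with 0 of 5 tested genes called by limma (2 at an unadjusted p under 0.05), summed to 1.19 to 1.69 over 7 genes in AD, against 0.868 to 1.29 in Sham, and Mrgprd was above background on 0 of 6 arrays.

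Scn1a encodes the sodium channel that is most prominent in fast-spiking GABAergic interneurons and is known for its loss in Dravet syndrome. Its level was 2.91, 3.06 and 2.77 on the AD arrays, against 3.64, 3.66 and 3.37 on the Sham arrays, and the groups did not overlap. The mean was 2.91 ± 0.15 in AD and 3.56 ± 0.16 in Sham (SD, n = 3 each). The log2 difference was -0.64 ± 0.13 (SE), a 1.56-fold fall, with a limma adjusted p of 0.0316. Within scan day 1 it was -0.73 and was called. It was not called with quantile normalization (-0.48), under normexp correction (-0.56, adjusted p = 0.0595) or by the methods' t-test. The call also ended when any AD replicate or Sham replicate 1 or 2 was left out (log2 differences of -0.57 to -0.71, limma adjusted p of 0.0579 to 0.138). As said for Scn9a, those runs called only 0 to 2 of all tested probes. Its adjusted p ranged from 0.00268 to 0.222 over 21 alternatives, and all 21 differences were below 0.

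Scn1a and Scn9a stand in a cluster of sodium channel genes on rat chromosome 3, in the order Scn3a, Scn2a, Scn1a, Scn9a and Scn7a in the RefSeq table of assembly GRCr8. Scn1a and Scn9a are direct neighbours, and 4 other protein-coding genes lie between Scn2a and Scn1a. Along this order the log2 differences were 0.96 for Scn3a, -0.23 for Scn2a, -0.64 for Scn1a and -0.998 for Scn9a. Neighbours therefore did not share 1 direction. Scn3a, whose channel is most abundant in embryonic brain, had levels of -1.96, -2.06 and -1.81 on the AD arrays, against -2.70, -2.39 and -3.64 on the Sham arrays. All AD values were higher, but Sham replicate 3 lay far below the other Sham arrays. The difference of 0.96 ± 0.32 (SE) was not called (limma adjusted p = 0.0988). Without Sham replicate 3, which equals the comparison within scan day 1, Scn3a had a difference of 0.60 and was called (limma adjusted p = 0.0400, with values between 0.0229 and 0.280 over 21 alternatives).

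No other alpha subunit was called. Scn8a, the main channel of the axon initial segment and nodes of Ranvier, stood at -0.28, -0.05 and -0.19 in AD, against 0.14, 0.25 and 0.23 in Sham. Its groups did not overlap and its difference was -0.38 ± 0.10 (SE), with a limma adjusted p of 0.0522, the closest to the threshold among the genes not called, whereas Scn1a (0.0316) was the closest inside it. Scn8a was called in 3 of 21 alternatives. Scn2a, the other abundant axonal channel of excitatory neurons, stood at 3.34, 3.25 and 3.22 in AD, against 3.37, 3.69 and 3.42 in Sham, again without overlap, and differed by -0.23 ± 0.11 (limma adjusted p = 0.223). Scn11a, known from sensory neurons, was measured on 2 AD and 3 Sham arrays because 1 AD spot was left out as an outlier, and differed by 0.17 (95% interval -0.51 to 0.85). The skeletal muscle channel Scn4a was well above background on 1 AD and 1 Sham array, and the sensory neuron channel Scn10a on 0 of 6 arrays, so neither was tested.

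**Figure D2:**
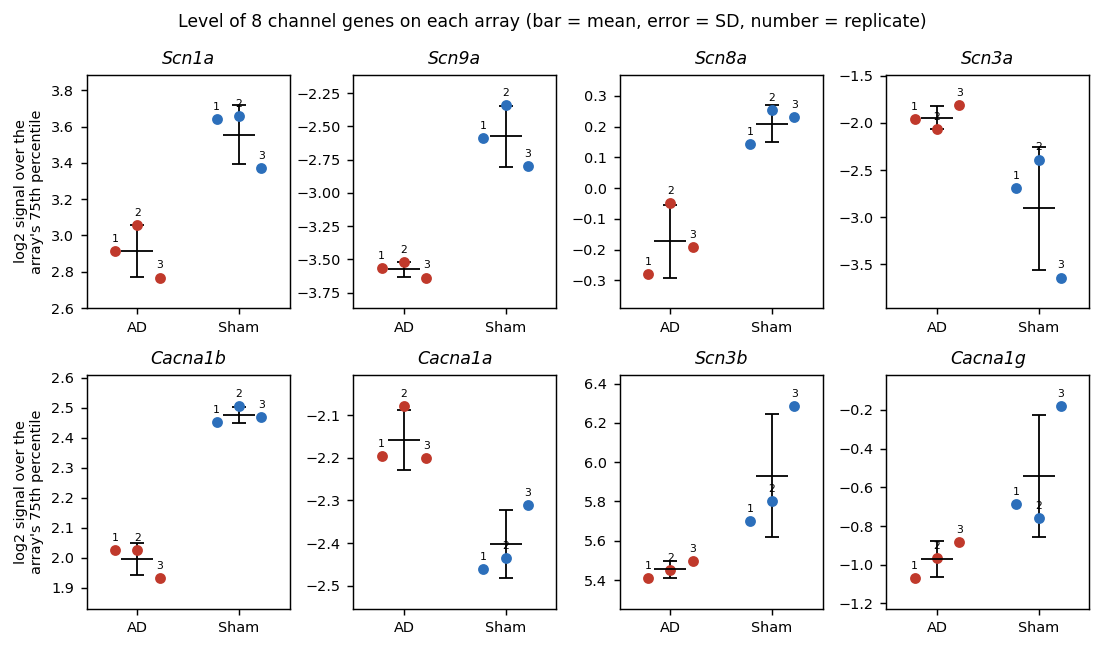
Level of 8 channel genes on each array (vertical axis, log2 signal over the array's 75th percentile), with AD (red) left of Sham (blue), bars for the mean and error bars for the SD (n = 3 each), and small numbers for the replicate. The 8 genes shown are all among the 11 of 32 tested channel genes (34.4%) whose groups do not overlap, beside 39% of all tested probes. Sham replicate 3 is the Sham array farthest from the AD values for Scn3a, Scn3b and Cacna1g. For Scn1a, Scn9a and Cacna1a it is the Sham array nearest to them.

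Promoter sequence is shown for genes of this comparison whose direction or call stands out, to set the upstream letters beside the measured differences. RefSeq promoter windows (GRCr8) were found for 25 of the 38 genes. The lines below give the 250 bases before the annotated start, 5′ to 3′, with capitals for the letters GGGCGG or their reverse complement CCGCCC, the GC box bound by Sp1. Scn9a and Cacna1b were called lower and Scn3a had the largest rise that was not called. Scn1a is not in the table of windows.
Scn9a, chr3:71701378-71701627, minus strand: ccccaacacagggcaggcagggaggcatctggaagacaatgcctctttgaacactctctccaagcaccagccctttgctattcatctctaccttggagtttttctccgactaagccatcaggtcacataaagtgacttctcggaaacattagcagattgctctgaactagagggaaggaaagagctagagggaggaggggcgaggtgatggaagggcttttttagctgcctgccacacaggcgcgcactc
Cacna1b, chr3:27944286-27944535, minus strand: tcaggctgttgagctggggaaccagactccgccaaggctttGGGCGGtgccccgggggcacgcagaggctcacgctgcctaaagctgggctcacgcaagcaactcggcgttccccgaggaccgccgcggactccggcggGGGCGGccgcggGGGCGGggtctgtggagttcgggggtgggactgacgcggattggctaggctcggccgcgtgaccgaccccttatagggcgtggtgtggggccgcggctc
Scn3a, chr3:70666199-70666448, minus strand: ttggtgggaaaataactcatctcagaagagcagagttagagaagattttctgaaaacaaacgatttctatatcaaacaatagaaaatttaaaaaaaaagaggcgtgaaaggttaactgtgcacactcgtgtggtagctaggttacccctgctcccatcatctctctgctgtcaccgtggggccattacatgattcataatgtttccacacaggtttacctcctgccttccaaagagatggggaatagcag
The Cacna1b window held 3 GC boxes and 28 CpG pairs at 72% G or C. Scn9a had none of these boxes, 5 CpG pairs and 52.4% G or C, and Scn3a none, 4 CpG pairs and 41.6%. Either orientation of GGGCGG was present in 11 of the 25 channel windows (44%), beside 32.4% of 27457 windows of the same length. The 2 called genes shown thus differed in these letters, and a match is a description only.

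The sodium channel beta subunits gave 0 calls among 4 tested genes (limma, with 1 at an unadjusted p under 0.05). Scn3b, a beta subunit rich in hippocampal neurons, stood at 5.41, 5.45 and 5.50 in AD, against 5.70, 5.80 and 6.29 in Sham. The groups did not overlap, and the difference of -0.48 ± 0.16 (SE) did not pass (limma adjusted p = 0.110). Without Sham replicate 3 Scn3b differed by -0.30. Scn2b (0.17) and Scn4b (-0.05), direct neighbours on chromosome 8, overlapped between groups. For Scn4b the AD values of 1.14 to 1.22 lay inside the Sham values of 0.82 to 1.69.

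Of the alpha1 subunits of P/Q-, N- and R-type calcium channels, which open at strong depolarisation and serve transmitter release, 1 of 3 fell. This was Cacna1b, the pore of the N-type channel. Its level was 2.03, 2.03 and 1.93 on the AD arrays, against 2.45, 2.51 and 2.47 on the Sham arrays. Both groups were tight, with means of 1.99 ± 0.05 in AD and 2.48 ± 0.03 in Sham (SD, n = 3 each), and the gap between them was wider than either SD. The log2 difference was -0.48 ± 0.08 (SE), a 1.40-fold fall, with a limma adjusted p of 0.0235. It was -0.49 within scan day 1 and passed, and it also passed with quantile normalization (-0.35) and under normexp correction (-0.43). A dimmer Cacna1b probe, designed to another transcript accession, gave -0.21 ± 0.14 (adjusted p = 0.341), and the mean of both probes gave -0.35 and was not called. As for the other calls, leaving out any AD replicate or Sham replicate 1 or 2 ended the call (log2 differences of -0.45 to -0.50, limma adjusted p of 0.0599 to 0.125), in runs that called only 0 to 2 of all tested probes. The adjusted p ran between 0.00334 and 0.196 over 21 alternatives.

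Cacna1a, the pore of the P/Q-type channel that drives fast release at most central synapses, went the other way without passing the test. It stood at -2.20, -2.08 and -2.20 in AD, against -2.46, -2.43 and -2.31 in Sham, with no overlap. The difference was 0.24 ± 0.09 (SE, limma adjusted p = 0.124), and its other probe gave 0.39 ± 0.13 (adjusted p = 0.0988). The difference of these 2 genes was not tested against each other. Cacna1e, the R-type pore, differed by -0.04 with a 95% interval of -0.26 to 0.19, so a change of the size seen for Cacna1b lay outside its interval.

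Among T-type alpha1 subunits, which open near the resting potential and support burst firing, 0 of 3 were called by limma (1 at an unadjusted p under 0.05). Cacna1g stood at -1.07, -0.96 and -0.88 in AD, against -0.69, -0.76 and -0.18 in Sham. Its groups did not overlap and it differed by -0.43 ± 0.17 (SE, limma adjusted p = 0.147), but a dimmer probe gave 0.28 ± 0.08 (adjusted p = 0.0797), so the 2 probes disagreed in sign. Cacna1h (0.07) and Cacna1i (0.20) were tight in AD and spread widely within Sham. Cacna1h ran between 1.17 and 1.24 in AD, against 0.56 and 1.68 in Sham. Cacna1i ran between 0.73 and 0.92 in AD, against 0.33 and 1.13 in Sham. For both genes Sham replicate 3 was the highest of the 6 arrays. Without it Cacna1i had a difference of 0.46 and was called higher in AD (limma adjusted p = 0.0304, with values between 0.0304 and 0.889 over 21 alternatives).

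Of the L-type alpha1 subunits, Cacna1c, the main L-type pore of brain and heart, differed by 0.11 with an interval of -0.19 to 0.41. Its dimmer probe gave -0.27 ± 0.12 (SE, limma adjusted p = 0.198) with groups that did not overlap, and the mean of both probes gave -0.081, so no direction was settled. Cacna1s is the L-type channel of skeletal muscle. It stood at -3.27, -3.94 and -2.20 in AD, against -3.70, -3.79 and -3.69 in Sham, and differed by 0.59 ± 0.42 (SE, limma adjusted p = 0.382). AD replicate 3 was highest and AD replicate 2 lowest of all 6 arrays. Skeletal muscle markers had the same highest array. Their summed signal over 11 genes was 3.07, 2.62 and 7.20 on AD replicates 1 to 3, against 1.26, 1.65 and 2.25 on the Sham arrays, with 2 of 10 tested genes called higher and 10 of 10 above 0. Of these markers Myh4 and Tnnt3 passed the background flag on 3 AD and 0 Sham arrays, and Myot on 1 array of all 6. Myh4 and Tnnt3 were thus tested only through their AD signal. Acta1 and Tnnt3 are among the most raised mRNAs that the paper tabulates, so the direction of this list is no independent result. The part of these markers in the Cacna1s values was not tested. Cacng1, the gamma subunit of the muscle channel, was above background on 2 AD and 0 Sham arrays. Cacna1f, the channel of the retina, was above background on 0 of 6 arrays.

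The alpha2delta subunits, which traffic the channels and include the binding sites of gabapentin, gave 0 calls among 3 tested genes (limma, 0 also at an unadjusted p under 0.05). The differences were -0.13 for Cacna2d1, -0.18 for Cacna2d2 and -0.04 for Cacna2d3. The last was measured on 2 Sham arrays, as the spot of Sham replicate 1 was left out as an outlier. Cacna2d2 stood at -5.39, -5.27 and -5.31 in AD, against -5.23, -5.26 and -4.94 in Sham, and the groups only just failed to overlap. Cacna2d4, best known from the retina, was above background on 0 of 6 arrays. All 3 intervals included 0, with lower ends of -0.32 to -0.46.

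The beta subunits, cytoplasmic partners that bind the pore and keep it at the surface, likewise gave 0 calls among 4 genes (limma, 1 at an unadjusted p under 0.05). Cacnb2 stood at -4.42, -4.26 and -4.28 in AD, against -4.74, -4.45 and -4.75 in Sham, and its groups did not overlap. Its difference of 0.33 ± 0.12 (SE, limma adjusted p = 0.114) turned to -0.14 under normexp correction. Cacnb1 differed by 0.03 and 0.04 on its 2 probes, Cacnb3 by -0.11 and Cacnb4 by -0.18 and -0.28. Cacnb1 was among the best bounded of all channel genes, with an interval of -0.20 to 0.27.

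The gamma family gave 0 calls among 6 tested genes (limma, 0 also at an unadjusted p under 0.05). These were the TARPs that carry AMPA receptors to the synapse. Cacng2, known as stargazin, differed by 0.15 with an interval of -0.31 to 0.61, Cacng3 by 0.18, Cacng4 by -0.10, Cacng7 by -0.08 and Cacng8, the TARP typical of the hippocampus, by 0.04 (-0.38 to 0.46). All 6 overlapped between the groups. Cacng5 had the widest spread of the tested channel genes within Sham. It stood at -4.79, -5.14 and -4.56 in AD, against -3.56, -5.33 and -5.15 in Sham, and its interval of -1.31 to 1.01 excludes little. Cacng6, like Cacng1 a muscle gene in this family, was above background on 0 AD and 1 Sham array and was not tested.

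Overlap and spread over the whole set did not set it apart. For 11 of the 32 genes (34.4%) the 3 AD values lay wholly on 1 side of the Sham values, 8 lower and 3 higher in AD, whereas this held for 39% of all tested probes, 23.4% lower and 15.6% higher. The genes above were thus not more often separated than others. The within-group SD had a median of 0.092 in AD and 0.18 in Sham over the channel genes, beside 0.115 and 0.176 over all tested probes, and 23 of 32 genes varied more in Sham. Sham replicate 3, the array scanned on another day, was the highest of the 6 arrays for 13 genes and the lowest for 4, the most extremes of any array (17 of 32, against 8 to 12 on each other array). Such extremes were not counted over all tested probes. Its median deviation from the Sham mean over the 32 genes was 0.10, and on the other 5 arrays it ran from -0.09 to -0.01. Over all tested probes the median deviation was 0.06 on Sham replicate 3 and -0.04 to 0.003 on the other 5 arrays. For the 8 genes with a second tested probe, the sign agreed in 5 (Cacna1a, Cacna1b, Cacna1i, Cacnb1 and Cacnb4) and not in 3, among them Cacna1c and Cacna1g, and 0 of the second probes were called (limma).

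**Figure D3:**
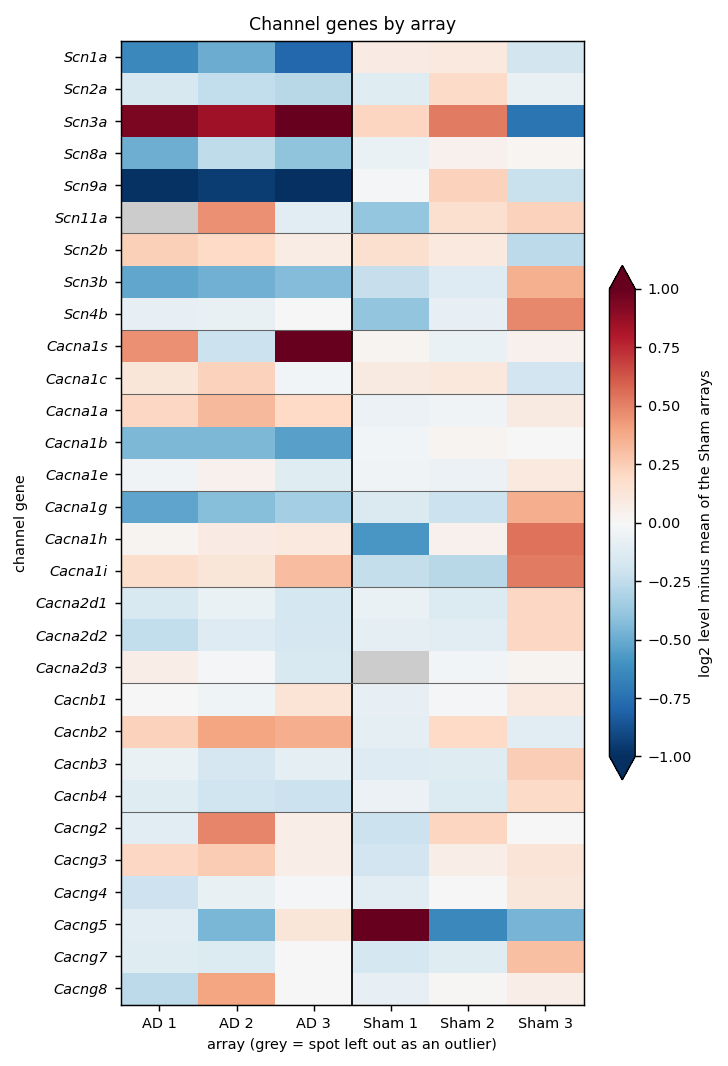
Colour gives the log2 level of 30 tested channel genes (rows) on each array (columns, AD left of Sham) minus the mean of the Sham arrays, on a scale from -1 to 1, with grey for a spot left out as an outlier. Scn1a and Scn9a are blue on all 3 AD arrays, Scn3a is red there, and the strongest Sham colour is Cacng5 on Sham replicate 1.

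Marker genes of some, but not all, cells that use these channels moved as well. Since these are bulk tissues, fewer cells of a type and less RNA per cell cannot be told apart. GABAergic interneuron markers had a summed signal of 44.2 to 47.3 over 10 genes on the AD arrays, against 74.7 to 79.5 on the Sham arrays. Of these 10 genes 5 were called lower, 0 were called higher and the median log2 difference was -0.73, although Pvalb, the marker of fast-spiking interneurons, changed 1.03-fold and was not called. General neuronal markers summed to 89.0 to 98.6 over 9 genes in AD, against 116 to 137 in Sham, with 6 of 9 called lower and a median of -0.45. Pyramidal and granule cell markers did not fall as a list. They summed to 12.1 to 13.2 over 8 genes in AD, against 10.8 to 12.9 in Sham. Of these 8 genes 3 were below 0 and 0 were called by limma (1 at an unadjusted p under 0.05), with a median of 0.10. No marker on these lists was below background on all 6 arrays. The interneuron and general neuronal lists were lower in AD, as were Scn1a, Scn9a and Cacna1b. Within Sham the lists differed in pattern. Sham replicate 3 had the highest general neuronal sum (137) but the lowest interneuron sum (74.7), and the lowest Sham levels of Scn1a (3.37) and Scn9a (-2.80). The part of any of these lists in the differences of these channel genes was not tested.

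**Figure D4:**
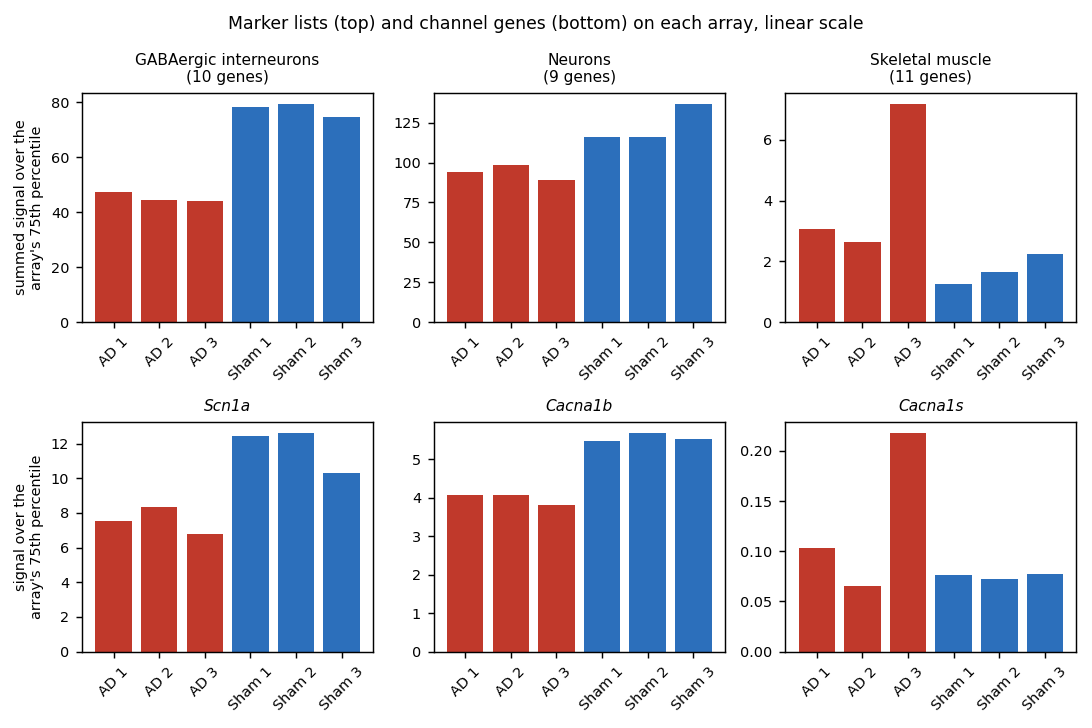
Summed signal of 3 marker lists (top) and signal of 3 channel genes (bottom), each divided by the array's 75th percentile, on a linear vertical axis, with AD arrays in red left of Sham arrays in blue. Interneuron and neuron markers are lower on all 3 AD arrays, as are Scn1a and Cacna1b, and AD replicate 3 stands highest for muscle markers (7.20) and Cacna1s.

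Genes that work with these channels gave a similar share of calls. Of 61 listed partners 51 had a matched probe and 48 were tested. Limma called 4 of them (8.33%, beside 12.5% of all probes), 2 higher and 2 lower, and the median difference was 0.0010. Nfasc, whose neurofascin anchors sodium channels at the initial segment and nodes, rose by 0.67 ± 0.09 (SE, limma adjusted p = 0.0198), with levels of -0.34, -0.43 and -0.24 in AD, against -0.98, -1.08 and -0.96 in Sham. It was the 1 call among 8 tested sodium channel partners. Nfasc is also used by oligodendrocytes, of whose 9 markers 5 were called higher and 0 lower, although their summed signal was 96.3 to 115 in AD, against 108 to 158 in Sham, and none was below background on all 6 arrays. Their part in the Nfasc difference was not tested. Cabp1, a calmodulin-like protein that regulates calcium channels, rose by 0.46 ± 0.10 (adjusted p = 0.0422), the 1 call among 14 regulators and presynaptic partners. The plasma membrane calcium pumps Atp2b1 (-0.80 ± 0.15, adjusted p = 0.0285) and Atp2b4 (-0.59 ± 0.11, adjusted p = 0.0305) fell, the 2 calls among 17 genes of calcium stores and extrusion. Atp2b1 stood at 5.31, 5.39 and 5.16 in AD, against 5.88, 6.005 and 6.36 in Sham. The sodium pump gave 0 calls among 6 genes (limma, 1 at an unadjusted p under 0.05), led by Atp1b1 at -0.70 ± 0.19 (adjusted p = 0.0593), and the other AMPA receptor auxiliary subunits 0 among 3 (0 also at an unadjusted p under 0.05), led by Shisa7 at -0.09.

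The thresholds in the methods ask for a 2-fold change or more together with an unadjusted p under 0.05 by the methods' t-test. No channel gene met both (0 of 32), while 6 had such a p. Over all 22818 tested probes 6602 had such a p and 329 (1.44%) met both. Scn9a lay at the fold threshold, with -0.998 on the log2 scale. It was past 2-fold on the authors' value table (-1.05, limma adjusted p = 0.0208), with quantile normalization (-1.05) and with median scaling (-1.05), so the 0 depends on the scaling.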

How the data were processed

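Scanner output of 6 single-colour Agilent rat 4x44K arrays was used. The deposited intensity values (Feature Extraction 11.0.1.1, per the submitters' processing notes) were background-subtracted and detrended by the authors within each array. The deposited table of log2 values by the authors (scaling not stated, all column medians 6.56) served as an alternative. Its columns for AD replicates 2 and 3 matched each other's scanner values, which leaves the groups unaffected. The deposited 0 or 1 flags for signal well above background (other columns) set the filter.

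Control and outlier spots were dropped, spots of a probe averaged on the log2 scale and the log2 75th percentile of the array subtracted. Accessions were matched without versions to RefSeq symbols of GRCr8 (59.3% of 30367 probes). The array design names build rn4, so no probe coordinates are given. Probes above background on at least 3 of 6 arrays were tested with lmFit and eBayes (limma 3.58.1, R 4.3.3, two-sided, Benjamini-Hochberg over 22818 probes, threshold 0.05), after a test on simulated data. The number of arrays limits the precision. No spot was saturated (0 on each array), and the 75th percentile of the signal ran from 795 to 932 in AD and from 429 to 755 in Sham.

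Single values of 2 tested channel genes are not reported here, although all counts and medians include them. The members and lists were chosen with earlier results of these data known. The text names every called channel gene, other members of each family, untested members and the called partners or the partner with the largest change of each list. Alternatives covered background correction, scaling, filter, scan, slide position, replicate number, test, array weights and each replicate left out. The files hold no mean spot signal, so normexp used the median signal (offset 50). This and the slide position were chosen after seeing the data.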

Additional observations from a re-analysis of the deposited data

Results flagged for a closer look

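Cacng1, a gamma subunit of the skeletal muscle calcium channel, was not tested because it was well above background on only 2 of 6 arrays, but both were AD arrays. It was measured at -4.81, -6.43 and -5.01 on AD arrays 1, 2 and 3, against -5.68, -5.78 and -5.55 on the Sham arrays, and its other probe was above background on 0 arrays. The difference was not tested, and the AD and Sham levels overlapped through AD replicate 2.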

How the results depend on the processing

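Scn1a, Scn9a and Cacna1b kept their direction in all 21 alternatives each and were called in 8, 13 and 11 of them. No channel gene passed the test in opposite directions under different settings. The count of called probes, 2863 in the analysis reported, was 1653 under normexp correction (where the median of all probes was -0.15), 351 without a filter, 4453 with scan day as a fixed block, 1845 by the methods' t-test, 329 at the methods' thresholds and 8765 with array weights. It was 0 with scan as a random block, with slide position as a block and with the replicate block, where limma gave 3671, 6489 and 6489 at an unadjusted p under 0.05. When 1 replicate was left out, the count was 4453 without Sham replicate 3 and 0 to 2 in each other case. Of the called probes 33.1% were higher, or 53.2% with the 75th percentile over detected probes and 17.2% under normexp correction.

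The 3 called channel genes became 1 without a filter, 5 with scan day as a fixed block, 9 with array weights, 0 at the methods' thresholds and 0 with scan, slide position or the replicate block (6, 8 and 9 at an unadjusted p under 0.05), and 0 to 5 when 1 replicate was left out. Without Sham replicate 3, which equals scan day as a fixed block, the 5 were Scn1a, Scn9a, Cacna1b, Scn3a and Cacna1i. The 4 called partners became 2 under normexp correction, 7 among probes above background on all 6 arrays, 7 with trend and robust moderation, 8 with scan day, 16 with array weights, 1 by the methods' t-test, 0 without a filter, at the methods' thresholds and with scan, slide position or the replicate block, and 0 to 8 when 1 replicate was left out. The median difference of the channel genes, -0.04, was -0.12 under normexp correction and 0.051 with the 75th percentile over detected probes. Whether equal replicate numbers pair the arrays was not settled. Deviations of same-numbered arrays correlated at 0.028, 0.072 and 0.138, beside -0.119 to 0.064 for the other pairs. Not every array matched its own number best, and 3 arrays a group are too few to decide it. The precision is limited by 3 arrays a group, and signal close to background left 6 of 38 channel genes untested.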
